A study of Mus musculus with 16 samples.

Results

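To test whether genes of other ubiquitin-specific proteases (USPs) changed when the deubiquitylase adaptor ATXN7L3 was absent, peaks of RNA polymerase II (Pol II) and of monoubiquitylated histone H2B (H2Bub1) were examined along the USP genes. The members were the autosomal protein-coding genes of the GENCODE M21 annotation with a symbol made of Usp and a number. Usp22, the catalytic partner of ATXN7L3, Usp6nl, which encodes a regulator of Rab proteins, and the Usp17l copies were left out. This rule used no measured value and gave 43 genes of 20807 autosomal protein-coding genes, or of 21938 on the 21 assembled chromosomes.

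ChIP-seq, in which DNA bound by a protein or mark is precipitated with an antibody and sequenced, compared Atxn7l3+/+ (wild-type, WT) and Atxn7l3-/- mouse embryonic stem cells (mESCs) and mouse embryonic fibroblasts (MEFs), with all cells of the strain DBA/2 x C57BL/6. The mESCs came from blastocysts of heterozygous matings and were grown with LIF and the inhibitors PD0325901 and CH99021, and the MEFs came from E10.5 embryos without head and gut. In the mutants the gene was deleted in the germline, and the study describes round cells among the fibroblast-like cells of Atxn7l3-/- embryos. There was 1 library per genotype, cell type and antibody (H2Bub1, or the RPB1 subunit of Pol II), so no difference below has a replicate check, no p-value is given, and values are set side by side.

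USPs are cysteine proteases that cut ubiquitin from proteins or cut ubiquitin chains. USP22, USP27X and USP51 need ATXN7L3 to act on H2B, whereas the other USPs do not belong to this module, and several of them have been linked to ubiquitylated histones H2A or H2B. H2Bub1 is placed by the RNF20/RNF40 ligase behind elongating Pol II and marks the bodies of transcribed genes, and Pol II peaks mostly mark the start sites of genes in use.

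The Pol II lists held 17074 (WT) and 11963 (Atxn7l3-/-) peaks in mESCs and 45870 and 32232 in MEFs. The H2Bub1 lists held 40979 and 48952 peaks in mESCs and 19725 and 28856 in MEFs, and the read depth behind them is unknown. Of the mESC markers, 7 of 8 had a Pol II promoter peak in both mESC lists, 1 in WT MEFs and 2 in Atxn7l3-/- MEFs, with Esrrb lacking throughout. All 7 fibroblast markers had one in both MEF lists and 0 in the mESC lists. Of 9 epithelial and mesothelial markers, 0 had such a peak in WT MEFs and 4 in Atxn7l3-/- MEFs (Msln, Upk1b, Upk3b and Wt1), against 2 in each mESC list. The 4 Y-linked genes examined had promoter peaks in WT MEFs only. The mESC lists also stood apart in the share of peaks on chromosome X, which was 0.855% in WT and 2.76% in the mutant for Pol II, and 0.569% and 2.20% for H2Bub1. The part of these differences between the libraries in the results was not tested, and they cannot be told apart from the genotype. The promoter of Atxn7l3 itself had a Pol II peak in all 4 lists, with folds of 3.61 (WT) and 3.71 (Atxn7l3-/-) in mESCs and 20.9 and 23.4 in MEFs, which does not test the deletion. H2Bub1 covered 100% of Atxn7l3 in WT and 62.5% in mutant mESCs, where a stretch of 2750 bp inside the gene had no peak. It covered 22.0% in WT and 65.3% in mutant MEFs, and 10.2% and 7.60% of that same stretch, so the stretch sets the mESC lists apart but not the MEF lists.

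A promoter was taken as 1000 bp on either side of the transcription start site (TSS) of the gene record, and called occupied where at least 1 bp lay in a Pol II peak. Its fold enrichment is the highest among those peaks, over the background of the same library. The H2Bub1 covered share is the percent of bases from TSS to transcript end that lie in a broad H2Bub1 peak. The USP genes ran from 6047 bp (Usp21) to 236642 bp (Usp29), with a median of 57143 bp against 17629 bp for autosomal genes, and a longer gene meets a peak more often. In 24 of the 43 genes some coding transcript starts over 1000 bp from the TSS of the record, so values at any coding TSS are given as well.

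Upstream sequence is shown for members on which the results below turn. Among the mESC lists, Usp28 and Usp40 had a Pol II promoter peak in WT only, and Usp12 and Usp19 in Atxn7l3-/- only. Usp7 is shown at its RefSeq start, Usp36 for its higher Pol II in mutant MEFs, and Usp21 for an H2Bub1 share that differed by the whole gene. The sequences are RefSeq promoter entries on GRCm38.p6, without bases of annotated exons, from chr9:48985199-48985318 (plus strand), chr1:88008583-88008702 (minus), chr5:146795007-146795126 (minus), chr9:108490531-108490601 (plus), chr16:8738421-8738540 (minus), chr11:118290261-118290380 (minus) and chr1:171287992-171288111 (minus). They are written 5′ to 3′ along the gene, and capitals mark matches to the motifs named after them.
Usp28: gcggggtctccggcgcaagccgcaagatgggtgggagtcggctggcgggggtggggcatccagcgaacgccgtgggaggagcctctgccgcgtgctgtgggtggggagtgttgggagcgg
Usp40: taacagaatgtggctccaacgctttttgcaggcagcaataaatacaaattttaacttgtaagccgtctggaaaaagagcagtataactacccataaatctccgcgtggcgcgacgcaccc
Usp12: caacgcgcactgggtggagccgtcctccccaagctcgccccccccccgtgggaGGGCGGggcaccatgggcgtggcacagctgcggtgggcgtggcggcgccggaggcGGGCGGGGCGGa
Usp19: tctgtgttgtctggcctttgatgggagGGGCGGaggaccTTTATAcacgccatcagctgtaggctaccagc
Usp7: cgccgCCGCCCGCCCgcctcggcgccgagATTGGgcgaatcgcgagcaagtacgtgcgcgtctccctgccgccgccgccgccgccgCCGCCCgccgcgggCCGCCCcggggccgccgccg
Usp36: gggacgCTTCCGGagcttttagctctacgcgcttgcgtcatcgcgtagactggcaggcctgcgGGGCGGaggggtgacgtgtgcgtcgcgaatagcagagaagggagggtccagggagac
Usp21: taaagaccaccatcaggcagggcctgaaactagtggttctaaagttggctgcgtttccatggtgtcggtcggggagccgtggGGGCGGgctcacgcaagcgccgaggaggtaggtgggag

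The motifs were the GC box (GGGCGG or CCGCCC), the ETS motif (CCGGAAG or CTTCCGG), the CCAAT box (CCAAT or ATTGG), the E-box (CACGTG) and the TATA box (TATAAA or TTTATA), each on both strands, and copies of the GC box may overlap. RefSeq entries were matched for 33 of the 43 members. Within the 250 bases before the start, 23 of these 33 (69.7%) held a GC box, as did 44.8% of 15687 autosomal protein-coding genes with an entry. The ETS motif was in 6 members (18.2%, against 9.63% of all), the CCAAT box in 6 (18.2%, against 35.7%), the E-box in 3 (9.09%, against 6.83%) and the TATA box in 2 (6.06%, against 12.0%). The median GC content of the same stretch was 65.6% for members and 56% for all. Among the printed stretches, those of Usp12 and Usp7 held 3 and 4 GC boxes, and those of Usp28 and Usp40 held none of the motifs, although the full 250 bases held 5 GC boxes and 1 CCAAT box at Usp28 and 1 TATA box at Usp40. A match describes the letters only.

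In mESCs, most of the USP genes with Pol II at the promoter had it in both genotypes. A promoter peak was called at 25 members in WT (58.1%, against 35.3% of all autosomal genes) and at 21 in Atxn7l3-/- cells (48.8%, against 32.1%), and 19 of them were shared (44.2%, against 27.2%). Only in the WT list had 6 members a peak (14.0%, against 8.04% of all genes), and only in the Atxn7l3-/- list 2 members (4.65%, against 4.85%). The WT list was the longer one, and after both lists were cut to equal numbers there were 5 in WT only (11.6%, against 5.41% of all genes) and 5 in the mutant only (11.6%, against 7.52%), with Usp8, Usp29 and Usp47 joining the latter. With any coding TSS, the counts were 29 in WT (background 37.8%), 25 in the mutant (34.4%), 6 in WT only (8.52%) and 2 in the mutant only (5.07%). The 6 members with a peak in WT only were Usp4, Usp7, Usp16, Usp28, Usp40 and Usp43.

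Usp40, a little studied member, had a promoter fold of 5.14 in WT mESCs and no peak in the mutant list, where the nearest Pol II peak was 154950 bp from the TSS. Usp16, a protease that acts on ubiquitylated H2A, had a fold of 4.86 in WT, and the nearest mutant peak was 14150 bp away. Usp28, which stabilizes nuclear proteins such as MYC, had a fold of 3.43 and a nearest mutant peak at 489445 bp. Usp43 had a fold of 3.30 and a nearest mutant peak at 634629 bp, and Usp4 a fold of 3.10 and a nearest mutant peak at 6317 bp. With the window from 100 bp before to 300 bp after the TSS the WT-only calls of Usp28 and Usp43 ended and Usp1 joined, and with equal numbers of peaks that of Usp4 ended. These WT folds lay within the range of the 25 WT promoter folds of the members, 2.65 (Usp47) to 12.7 (Usp34), with a median of 4.24.

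Usp7, the protease of MDM2 and p53, needs a second look because its record starts 53966 bp before its RefSeq start. At the record TSS the fold was 4.02 in WT mESCs, with no peak in the mutant, but at the RefSeq start a peak was present in both genotypes, with folds of 6.15 in WT and 4.79 in Atxn7l3-/- mESCs. In MEFs the record TSS had no peak, and the RefSeq start had folds of 11.7 in WT and 14.3 in the mutant. The WT-only call of Usp7 was therefore not found at any coding TSS. With any coding TSS its place was taken by Usp44, which can remove ubiquitin from H2B. Usp44 had a fold of 3.19 in WT mESCs at a start site 2263 bp inside the record, and no peak there in the other 3 lists.

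The 2 members with a promoter peak in Atxn7l3-/- mESCs only were Usp12, whose protein acts with WDR proteins and has been linked to H2A and H2B, and Usp19, a protease with a form anchored in the endoplasmic reticulum. Usp12 had a fold of 4.47 and Usp19 of 3.32 in the mutant list, and the nearest WT peaks were 37739 and 25724 bp from their TSS. H2Bub1 peaks covered 26.6% of Usp12 and 71.3% of Usp19 in WT mESCs, in the absence of a promoter peak, but only 2.44% and 0% at a -log10 q value of at least 3.

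Over the 19 members with a promoter peak in both mESC lists, the median log2 ratio of mutant to WT fold was 0.20, against 0.02 over 5663 autosomal genes. The sign of this median depended on the setting: it was -0.13 with equal numbers of peaks, -0.26 over the 6 members at least 5000 bp from another gene, and -0.01 with any coding TSS. The fold was at least 1.5 times higher in the mutant list at 4 members (21.1%, against 10.8% of all) and at least 1.5 times lower at 2 of the 19 (background 10.9%). After the lists were cut to equal numbers, the higher count was 1 of 16 (6.25%, against 8.36%), Usp24, because Usp8, Usp29 and Usp47 then had no WT peak. Usp47, a protease of the base excision repair enzyme Pol beta, had folds of 2.65 in WT and 6.04 in the mutant. Usp29, an imprinted gene, had 2.66 and 5.61, but shares its promoter window with the TSS of Peg3. Usp24 had 5.51 and 10.3, and Usp8, a protease of endosomal sorting, had 2.95 and 5.24. The lower values were those of Usp21, an H2A protease, with 9.07 in WT and 4.87 in the mutant, and of Usp34, linked to Wnt signalling, with 12.7 and 7.89. Usp36, a nucleolar protease, came next among the low ratios, with 4.98 and 3.45.

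**Figure D1:**
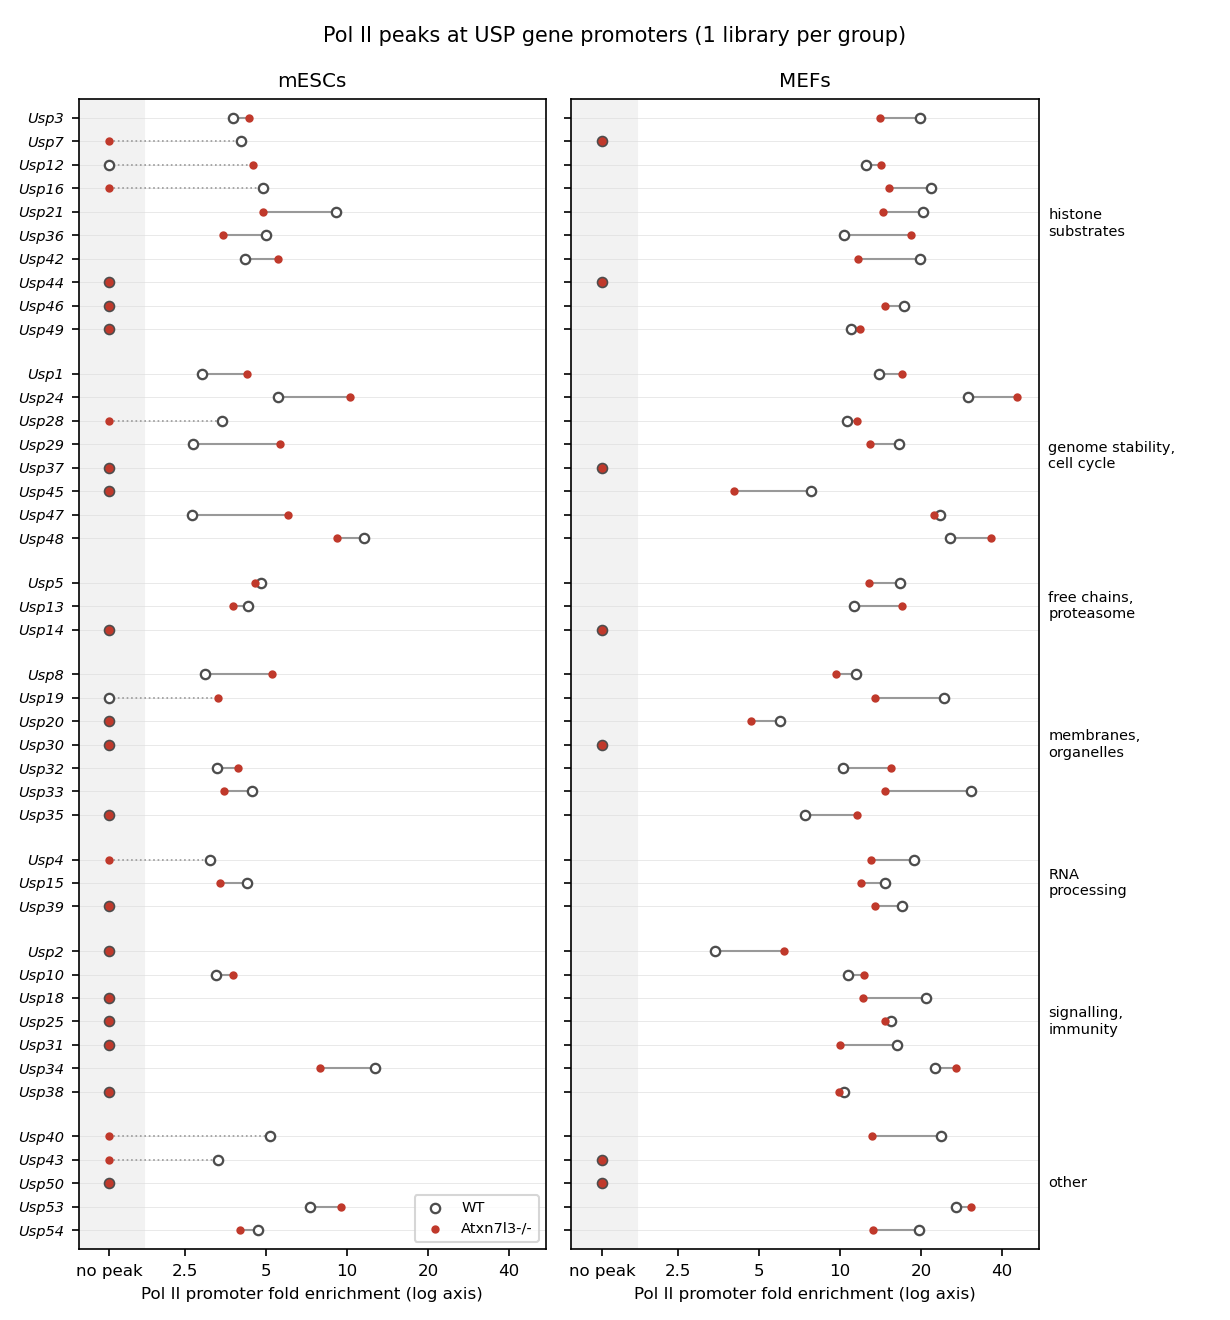
Pol II promoter fold enrichment (log axis) of the 43 USP genes, grouped by role, with WT as open circles and Atxn7l3-/- as filled circles, 1 library each; points in the grey strip had no promoter peak. In mESCs 6 genes have a WT circle only and 2 a mutant circle only, and in MEFs every gene with a peak has both circles.

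In MEFs, no USP gene differed in its promoter call between the genotypes. The same 36 members had a promoter peak in WT and in Atxn7l3-/- MEFs (83.7%), against 55.3% of all autosomal genes in WT, 52.3% in the mutant and 50.8% in both. A peak in WT only was found at 0 members (background 4.43%) and in the mutant only at 0 (background 1.51%). With a window from 100 bp before to 300 bp after the TSS, Usp49 alone had a peak in the mutant only, and its summits lay 1221 bp (WT) and 1169 bp (mutant) upstream. The 7 members without a peak at the record TSS were Usp7, Usp14, Usp30, Usp37, Usp43, Usp44 and Usp50. Of these, Usp7, Usp14, Usp30 and Usp37 had a Pol II peak at another coding TSS in both genotypes, giving 40 members in each list (58.2% of all genes in WT and 55.3% in the mutant), with 0 in WT only (4.44%) and 0 in the mutant only (1.54%). Usp14, the ubiquitin protease of the proteasome, had folds of 14.1 and 12.0 there, Usp30, a protease of the outer mitochondrial membrane, 11.1 and 6.39, and Usp37, linked to the cell cycle, 8.24 and 7.57.

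Over the 36 members, the median log2 ratio of mutant to WT promoter fold in MEFs was -0.23, against -0.22 over 10576 autosomal genes, so the ratios below are read against a median under 0. Over the 13 members at least 5000 bp from another gene the median was 0.13, against -0.24 over 3629 such genes. The fold was at least 1.5 times higher in Atxn7l3-/- MEFs at 6 members (16.7%, against 5.76% of all) and at least 1.5 times lower at 7 (19.4%, against 23.9%). The higher ones were Usp2, Usp36, Usp35, Usp24, Usp32 and Usp13. Usp2, which stabilizes fatty acid synthase and circadian factors, had 3.41 in WT and 6.19 in the mutant at the record TSS. At its RefSeq start, 17899 bp downstream, the folds were 10.8 and 22.7, while mESCs had 4.16 and 4.12 there. Usp36 had 10.4 in WT and 18.4 in mutant MEFs, the opposite order to mESCs. Usp35, a mitochondrial and Golgi protease, had 7.43 and 11.5, with the TSS of Kctd21 in the same window. Usp24 had the highest member fold of the mutant MEF list, 45.5, against 30.1 in WT.

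The lower ones were Usp33, Usp45, Usp40, Usp19, Usp18, Usp42 and Usp31. Usp33, a protease of cell migration and protein traffic, had the highest WT fold of the members, 30.7, and 14.6 in the mutant. Usp45, a DNA repair protease, had 7.79 and 4.03 at the record TSS, but 14.2 and 12.2 at its other coding TSS, so the lower call held at the record TSS only. Usp40 had 23.8 in WT and 13.2 in the mutant, and Usp19 24.3 and 13.5. Usp18, which removes the ubiquitin-like ISG15 and is induced by interferon, had 20.8 and 12.2. Usp40 and Usp19 thus had Pol II promoter peaks in both genotypes of MEFs, while their mESC calls differed in opposite directions.

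The Pol II calls of the USP genes also differed between the cell types. The WT lists were of unequal length, 45870 peaks in MEFs and 17074 in mESCs, and the part of this in the counts was not tested. In WT, 23 members had a promoter peak in both cell types (53.5%, against 33.4% of all genes), 13 in MEFs only (30.2%, against 21.9%) and 2 in mESCs only (4.65%, against 1.9%), namely Usp7 at its record TSS and Usp43. Across all 4 lists, 19 members had a promoter peak in each, as did 5437 of the 20807 autosomal genes, and 5 members had one in none. With any coding TSS, 23 members had a peak in each and 1, Usp50, in none. The shares of all genes without a peak in any list, or with any coding TSS, are not given here. Usp18 had no Pol II or H2Bub1 peak in any mESC list, and Usp43 none in any MEF list. The promoter folds of the members in WT had a median of 4.24 in mESCs and 16.7 in MEFs, values of different libraries that set no level across cell types.

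H2Bub1 covered more of nearly all USP genes in the Atxn7l3-/- lists, in both cell types. In mESCs an H2Bub1 peak touched 38 members in WT (88.4%, against 55.7% of all genes) and 42 in the mutant (97.7%, against 62.1%), with 4 in the mutant only (9.30%, against 9.53%), which were Usp29, Usp40, Usp44 and Usp45. In MEFs it touched 34 in WT (79.1%, against 31.7%) and 41 in the mutant (95.3%, against 54.3%), with 7 in the mutant only (16.3%, against 22.9%). These counts moved with the peak threshold: at a -log10 q value of at least 3, 14.0% of members had H2Bub1 in WT MEFs (5.76% of all genes) and 79.1% in the mutant only (43.7%), and in mESCs 46.5% had it in WT (22.2%) and 37.2% in the mutant only (23.3%). The median covered share of the members was 5.33% in WT and 17.4% in Atxn7l3-/- mESCs, and 6.79% and 42.4% in MEFs. Over all autosomal genes these medians were 1.31% in WT and 6.66% in mutant mESCs, and 0% and 6.37% in MEFs.

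The covered share was higher in the mutant list at 39 members in mESCs (90.7%, against 54.2% of all genes) and at 41 in MEFs (95.3%, against 53.8%). It was higher in both cell types at 38 members, for which the share of all genes is not given. It was lower in the mutant at 3 members in mESCs (6.98%, against 9.83%), Usp10, Usp43 and Usp48, and at 0 in MEFs (background 0.529%). A difference of 10 percentage points or more upward was seen at 20 members in mESCs (46.5%, against 32.7%) and 38 in MEFs (88.4%, against 46.2%). Downward, only Usp48 in mESCs passed this size (2.33%, against 2.96%), and 0 members in MEFs (background 0.115%). Many autosomal genes carry no Pol II, so the same count was made among genes whose promoter had Pol II in both genotypes. There, 6 of 19 members in mESCs (31.6%, against 54.4% of such genes) and 35 of 36 in MEFs (97.2%, against 82.4%) had 10 points or more in addition. The share of members thus lay below the background in mESCs and above it in MEFs.

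**Figure D2:**
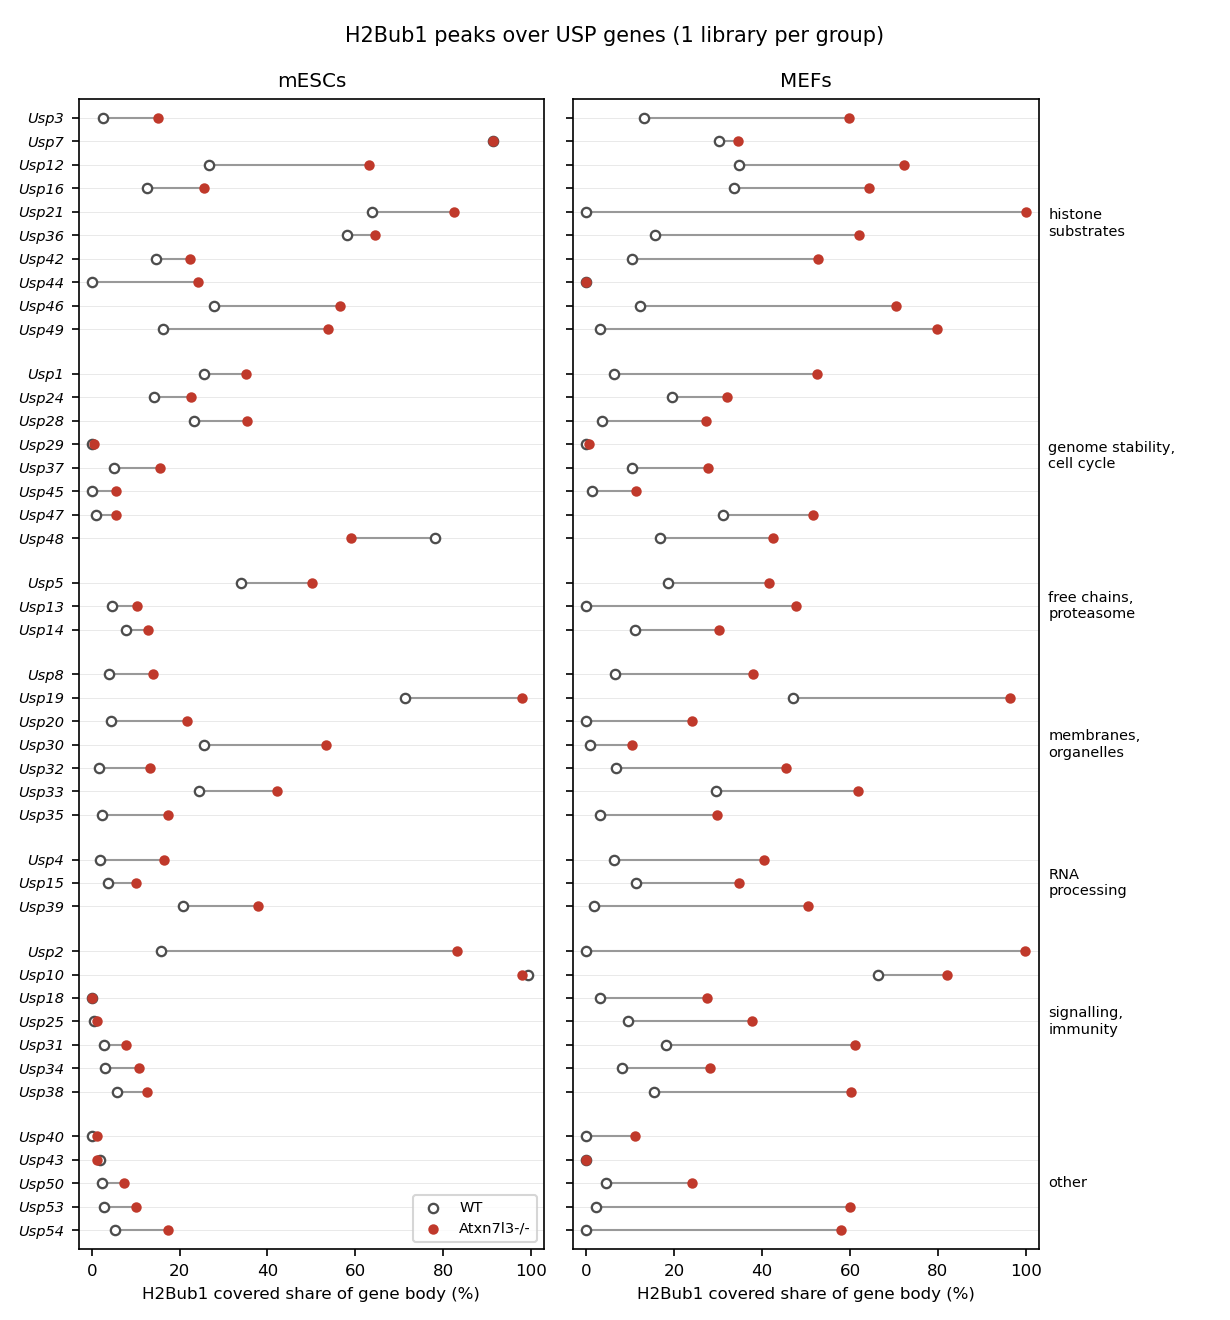
H2Bub1 covered share of the gene body (percent) of the 43 USP genes, with WT as open circles and Atxn7l3-/- as filled circles, 1 library each. The filled circle lies to the right at 39 genes in mESCs and at 41 in MEFs, with Usp48, Usp10 and Usp43 to the left in mESCs.

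All members together measured 2822 kb. Peaks covered 397 kb of them in WT mESCs and 660 kb in the mutant, and 302 kb in WT MEFs and 1081 kb in the mutant, which is 14.1%, 23.4%, 10.7% and 38.3% of the bases. For all autosomal genes the same shares were 6.73%, 13.6%, 4.80% and 21.4%. The signed difference, mutant minus WT share, was higher in MEFs than in mESCs at 41 of the 43 members. Among them was Usp43, with -0.850 points in mESCs and 0 in MEFs. The same count over all genes is not given, and their base shares above also differed more in MEFs, so nothing particular to the members is read from it. Where a peak was present in both genotypes, the fold of H2Bub1 itself differed less, with a median log2 ratio of mutant to WT of 0.11 over 38 members in mESCs (0.07 over 10940 genes) and 0.36 over 34 members in MEFs (0.34 over 6525 genes).

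The place of H2Bub1 along the genes also differed between the lists. In WT mESCs the peaks were most frequent just past the start: 30 of the 43 members (69.8%) lay in a peak at 500 bp, 12 (27.9%) at 3000 bp and 6 of the 42 that were long enough (14.3%) at 10000 bp. In Atxn7l3-/- mESCs the counts were 34, 30 and 19. In WT MEFs the peaks sat farther in, with 11 members (25.6%) at 500 bp, 16 (37.2%) at 3000 bp and 10 (23.8%) at 10000 bp, and in the mutant the counts were 35, 34 and 27. At the TSS itself, 13 members in WT and 28 in mutant mESCs, and 5 in WT and 28 in mutant MEFs, lay in a peak, against 18.7%, 39.6%, 3.65% and 36.1% of all genes. Over all autosomal genes the WT shares at 500 bp and 10000 bp were 32.6% and 13.2% in mESCs, against 12.1% and 10.0% in MEFs. At 3000 bp they were 18.1% in WT and 35.2% in mutant mESCs, and 12.7% and 43.5% in MEFs.

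**Figure D3:**
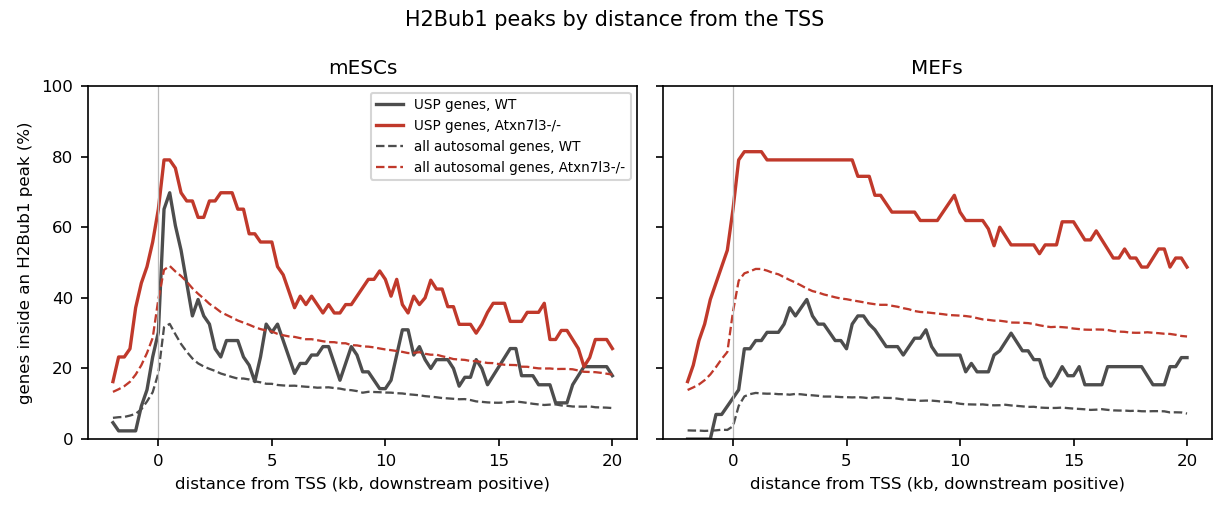
Percent of genes inside an H2Bub1 peak by distance from the TSS (kb, downstream positive), for the 43 USP genes (solid) and all autosomal protein-coding genes (dashed), WT in grey and Atxn7l3-/- in red; a gene counts as far as it is long. The solid WT line of mESCs is highest near 0.5 kb (69.8%), and the solid mutant lines lie above the solid WT lines over the first 10 kb.

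By role, the counts below are read against 39 and 41 of the 43 members, and 54.2% and 53.8% of all genes, with a higher share in mutant mESCs and MEFs, and against 20 and 38 members, and 32.7% and 46.2% of all genes, with 10 points or more. Among the 10 members linked to histones, H2Bub1 was higher in the mutant at all 10 in mESCs and at 9 in MEFs, by 10 points or more at 7 and 8, and nothing particular to the group is read from this. Their median covered share was 21.4% in WT and 55.1% in mutant mESCs, and 12.7% and 63.2% in MEFs. Usp21 had 63.8% in WT and 82.5% in mutant mESCs, and 0% in WT and 100% in mutant MEFs. At a -log10 q value of at least 3 its mESC shares were 0% and 82.5%. Usp49, a relative of Usp44 that acts on H2B, had 16.2% and 53.7% in mESCs, and 3.04% and 79.9% in MEFs, where the mutant share was 46.7% with equal numbers of peaks and 26.2% at a -log10 q value of at least 3. Usp12 had 26.6% and 63.1% in mESCs and 34.6% and 72.3% in MEFs, and its relative Usp46 27.8% and 56.4%, and 12.2% and 70.5%. In each mutant list the 2 genes lay within 10 points of each other.

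Usp3, an H2A protease, had 2.58% and 15.0% in mESCs and 13.2% and 59.8% in MEFs. Usp16 had 12.6% and 25.5%, and 33.5% and 64.4%, and Usp42 14.7% and 22.3%, and 10.3% and 52.8%. Usp36 had 58.2% and 64.5% in mESCs, and 15.6% and 62.0% in MEFs. At a -log10 q value of at least 3 it had 17.5% and 18.9%, and 0% and 62.0%. Usp7 had 91.2% in WT and 91.3% in mutant mESCs and 30.2% and 34.6% in MEFs, but the mESC shares were 56.6% and 84.3% at a -log10 q value of at least 3. Usp44 had 0% in WT and 24.3% in mutant mESCs, a list in which it had no Pol II peak, and 0% in both MEF lists, but at a -log10 q value of at least 3 it had 0% in every list.

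Of the 8 members linked to genome stability and the cell cycle, the share was higher in the mutant at 7 in mESCs and at 8 in MEFs. Usp48, a nuclear protease, had 78.1% in WT and 59.0% in mutant mESCs, but 16.8% and 42.4% in MEFs. At a -log10 q value of at least 3 it had 33.5% and 22.5% in mESCs, and 16.8% and 29.1% in MEFs. With all peaks, its mESC peaks reached over 50.6 kb in WT and 38.2 kb in the mutant, and its Pol II promoter fold was 11.6 and 9.16. In MEFs the order of both was reversed, with Pol II folds of 25.8 and 36.5. Usp1, the protease of FANCD2 and PCNA, had 25.5% and 35.1% in mESCs and 6.20% and 52.5% in MEFs. Usp28 had 23.2% and 35.4%, and 3.65% and 27.2%, so that its H2Bub1 share was higher in the mESC list in which its Pol II promoter peak was missing. Usp29 had hardly any H2Bub1, with 0% in both WT lists, 0.595% in mutant mESCs and 0.631% in mutant MEFs. Pol II promoter peaks were called in all 4 lists, but the window also holds the TSS of Peg3. Each summit lay upstream of the Usp29 TSS, and which gene these peaks belong to was not tested. The WT mESC peak had a -log10 q value of 2.98, and it was missing with equal numbers of peaks.

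The 3 members that act on free ubiquitin chains or at the proteasome had a higher share in both mutants. Usp5, which takes apart free chains, had 33.9% and 50.3% in mESCs and 18.5% and 41.5% in MEFs. Its relative Usp13 had 4.53% and 10.2% in mESCs, and 0% and 47.7% in MEFs, with a Pol II promoter fold of 11.3 in WT and 16.9 in mutant MEFs. Usp14 had 7.73% and 12.7%, and 11.0% and 30.1%. Of the 7 members of membranes and organelles, all were higher in both mutants, by 10 points or more at 6 in each cell type. Usp19 reached 98.0% in mutant mESCs and 96.5% in mutant MEFs, from 71.3% and 46.9% in WT.

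The 3 members linked to RNA processing were higher in both mutants as well. Usp39, a splicing factor without protease activity, had 20.7% and 37.9% in mESCs and 1.69% and 50.4% in MEFs. Usp4 had 1.89% and 16.5%, and 6.24% and 40.4%, and its relative Usp15 3.76% and 10.0%, and 11.4% and 34.6%. In mESCs Usp4 had a Pol II promoter peak in WT only, and Usp15 in both genotypes, with folds of 4.24 and 3.35.

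The 7 members of signalling and immunity differed widely from each other. Usp2 had 15.8% in WT and 83.2% in mutant mESCs, the largest difference of the 43 with all peaks, though not at a -log10 q value of at least 3, where Usp19 and Usp21 differed by more. In MEFs it had 0% and 99.9%, with 1 peak over 28.6 kb. Usp10, which acts on p53 and in stress granules, was nearly full in mESCs, with 99.3% in WT and 97.9% in the mutant, and had 66.4% and 82.1% in MEFs, or 0% and 82.1% at a -log10 q value of at least 3; the gene Gm20388 overlaps it. Usp18 had 0% in both mESC lists, and 3.13% and 27.4% in MEFs, which became 0% in every list at a -log10 q value of at least 3. Usp25 had 0.609% and 1.16% in mESCs, and 9.46% and 37.6% in MEFs, the only cell type in which it had Pol II promoter peaks (15.5 and 14.7). Among the 5 other members, Usp53 had 2.28% and 60.0% in MEFs and Usp54 0% and 58.0%, against 2.87% and 10.1%, and 5.33% and 17.4%, in mESCs. Usp43 had 1.96% and 1.11% in mESCs and 0% in MEFs.

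Pol II peaks inside the gene body beyond the promoter window were then compared. In mESCs, 9 members had one in WT (20.9%, against 20.9% of all genes) and 6 in the mutant (14.0%, against 13.6%), with 4 in WT only (9.30%, against 9.93%) and 1, Usp50, in the mutant only (2.33%, against 2.61%). The 4 were Usp16, Usp30, Usp36 and Usp44, and Usp30 had 4 body peaks in WT with folds of 3.43 to 4.78. Usp30 overlaps Svop and Alkbh2, and Usp16 overlaps Cct8, with its summit at 27483 bp of 28815 bp. Which gene these peaks belong to was not tested. The peak of Usp36 had its summit 918 bp past the TSS, inside the promoter window. In MEFs, 29 members had a body peak in WT (67.4%, against 42.2%) and 27 in the mutant (62.8%, against 33.9%), with 7 in WT only (16.3%, against 11.4%) and 5 in the mutant only (11.6%, against 3.1%). A wide promoter peak counts here when it reaches past 1000 bp, as at Usp10 and Usp25 in WT MEFs, and others lie at a second start site. The summit lay within 1000 bp of a coding TSS in 8 of 22 body peaks of WT mESCs, 5 of 7 of mutant mESCs, 20 of 101 of WT MEFs and 19 of 77 of mutant MEFs.

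The 5 members with a body peak in Atxn7l3-/- MEFs only were Usp13, Usp31, Usp46, Usp53 and Usp54. Usp53 had 7 such peaks, with summits from 5383 to 50490 bp past the TSS and folds of 2.98 to 4.65, and 0 in WT. Usp31 had 5, from 2323 to 8746 bp, with folds of 3.09 to 4.15. Usp54 had 4, of which the highest had a fold of 6.04. That peak overlapped the promoter window of the RefSeq start of Usp54, 22709 bp past the record TSS, with its summit 1633 bp beyond that start, and the other 3 lists had none there. Usp13 and Usp46 had 3 each, among them the promoter peak itself where it reached past the window.

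At 3 further members the number of body peaks was higher in the mutant MEF list though present in WT. Usp36 had 2 in WT and 9 in the mutant, covering 3.18% and 18.0% of the body. Usp35 had 2 and 7 (3.52% and 18.6%), and Usp2 had 1 and 4 (2.99% and 22.4%). These 3 members were chosen after their values were seen, and each also had a promoter fold at least 1.5 times higher in the mutant. Fewer body peaks in the mutant were more frequent: 22 members had fewer in mutant MEFs (51.2%, against 24.6% of all genes) and 8 had more (18.6%, against 9.50%). The WT list was the longer one, with 45870 peaks against 32232. The members were also longer than autosomal genes at the median, 57143 against 17629 bp, so more body peaks can differ. The part of either in these counts was not tested. Among the 22 were Usp47, with 10 body peaks in WT and 1 in mutant MEFs, Usp34, with 8 and 2, Usp40, with 8 and 3, and Usp33, with 5 and 0. In mESCs, 6 members had fewer (14.0%, against 13.8%) and 1 had more (2.33%, against 4.11%).

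**Figure D4:**
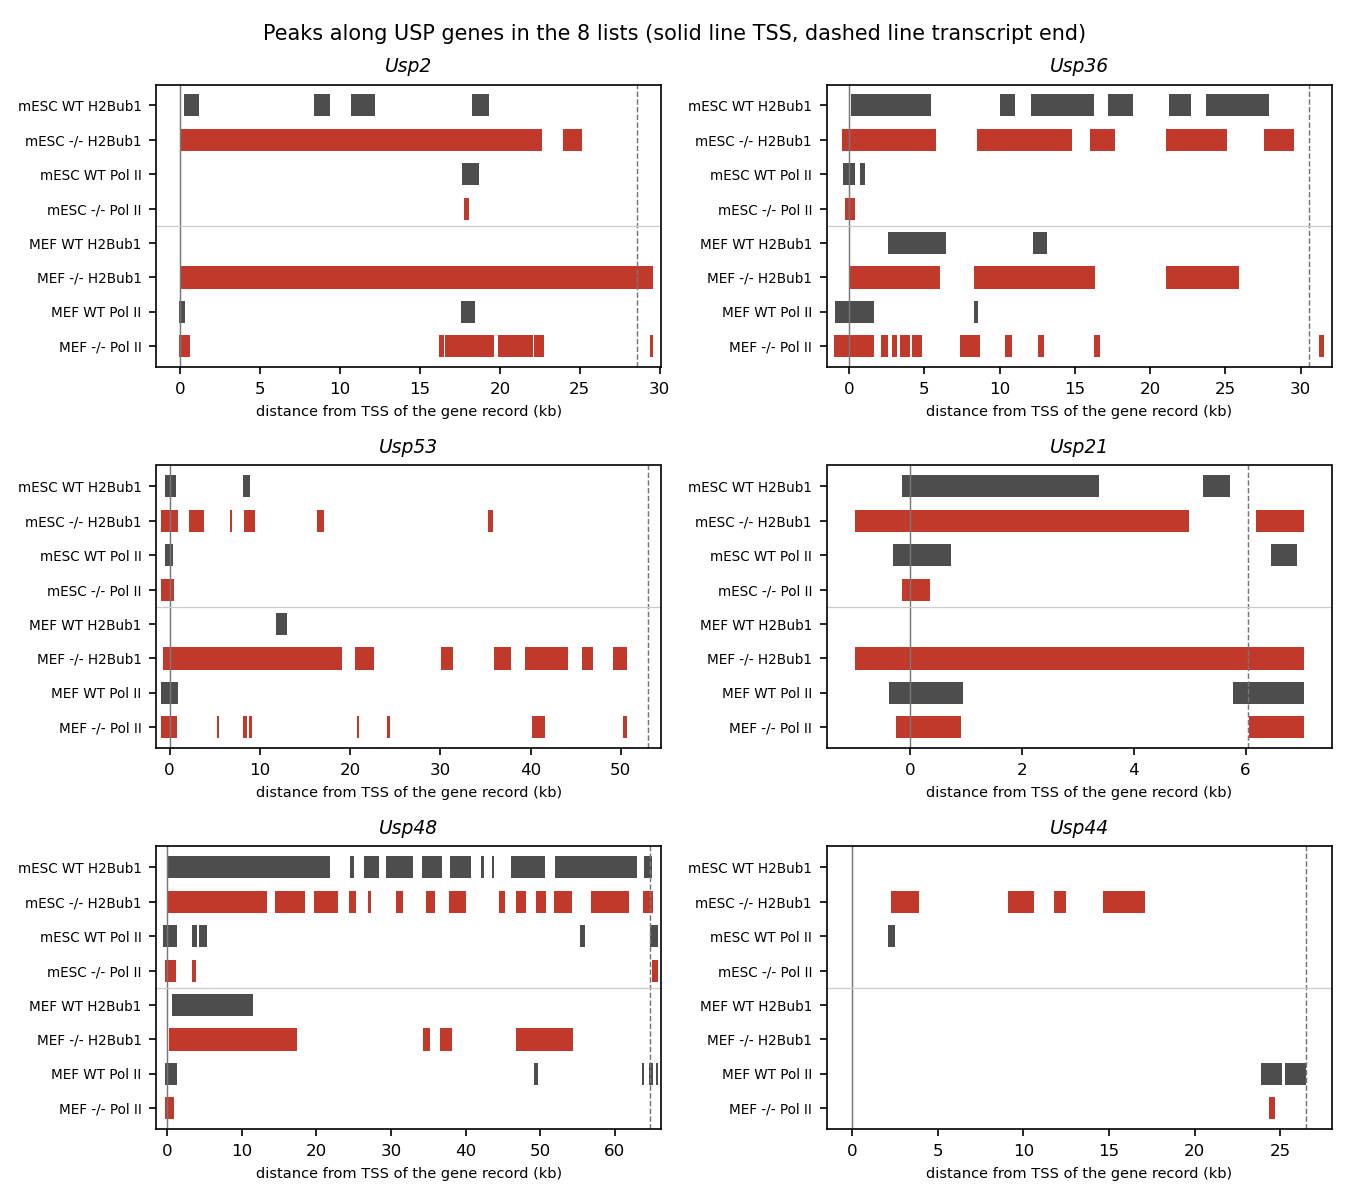
Peaks along Usp2, Usp36, Usp53, Usp21, Usp48 and Usp44 in the 8 lists by distance from the TSS of the gene record (kb), WT in grey and Atxn7l3-/- (-/-) in red; bars mark peak extent, not height, and are clipped 1 kb beyond the gene. The H2Bub1 bar of mutant MEFs spans Usp21 whole and 99.9% of Usp2, the mESC bars of Usp48 cover less in the mutant, and Usp44 has H2Bub1 in mutant mESCs only.

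The body peaks of Usp44 in MEFs, 2 in WT and 1 in the mutant, lay near the transcript end, and the next protein-coding gene is 400 bp away, so they cannot be given to Usp44. At Usp50, the 4 body peaks of WT MEFs had summits 15878 to 18762 bp past its TSS, outside the stretch it shares with Usp8. In all, 12 members overlap another protein-coding gene and 6 share the promoter window with the TSS of another gene.

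Of 12 related pairs within the family, 8 differed in the promoter call of at least 1 list, and 4 had the same calls in every list (Usp5 and Usp13, Usp36 and Usp42, Usp53 and Usp54, and Usp35 and Usp38). With any coding TSS the split was 7 and 5, since Usp2 and Usp21 then had the same calls. Unrelated pairs were not counted, so nothing particular to related genes is read from this. Usp12 had a promoter peak in mutant mESCs only and Usp46 in neither mESC list, while both had one in all MEF lists. Usp28 had one in WT mESCs and both MEF lists, and its relative Usp25 in MEFs only. Usp44 had no promoter peak at the record in any list, and Usp49 had one in both MEF lists, with folds of 10.9 and 11.9. Usp20, which acts on receptors and traffics with the endoplasmic reticulum, had none in mESCs and 5.99 and 4.66 in MEFs, whereas Usp33 had one in all lists. Usp43 had no H2Bub1 in MEFs, while its relative Usp31 had 18.2% in WT and 61.1% in mutant MEFs. Usp8 had a promoter peak in all 4 lists, and Usp50, which overlaps it, had none.

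The 36 genes of other deubiquitylase families (UCH, OTU, Josephin, JAMM, MINDY and others) were counted in the same way. In mESCs, 17 had a promoter peak in WT (background 35.3%) and 20 in the mutant (32.1%). A peak in WT only was found at 2 (background 8.04%) and in the mutant only at 5 (4.85%). When both lists were cut to the same length, these counts were 1 (background 5.41%) and 5 (7.52%). In MEFs, 34 had one in both genotypes (background 50.8%) and 0 in either alone (4.43% in WT only and 1.51% in the mutant only). Their H2Bub1 share was higher in the mutant at 31 in mESCs (background 54.2%) and 35 in MEFs (53.8%). The medians were 5.04% in WT and 21.2% in mutant mESCs, and 5.07% and 55.8% in MEFs. Usp22, the catalytic partner of ATXN7L3, had Pol II promoter folds of 2.42 in WT and 4.52 in mutant mESCs and of 8.75 and 5.76 in MEFs, and covered shares of 81.2% and 71.5%, and of 36.8% and 46.7%. Thus, within 1000 bp of the TSS no deubiquitylase gene of either list differed in its Pol II promoter call in MEFs, against 5.94% of all genes. In mESCs 8 of the 43 USP genes (18.6%) and 7 of the 36 others (19.4%) did, in both directions, against 12.9% of all genes.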

How the data were processed

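ChIP-seq peak lists of 8 of the 16 labelled samples were used, and the other 8 were not analysed here. Per the submitters' processing notes, bcl2fastq 2.17.1.14, Bowtie 1.0.0 and MACS2 2.1.1.20160309 were used with mm10. Peaks were called per library. The methods of the study say that libraries were normalized before the calls, H2Bub1 by size factors from reads in large intergenic regions and Pol II by total mapped reads. The control and threshold of the calls are not given in the sources used here. The fold enrichment (a ratio over local background) of each peak was deposited by the authors, as were its -log10 p and q values. The deposited score is 10 times the -log10 q value as a whole number, and the summit offset in the narrow Pol II lists is in bp per the file headers. No read counts were used, so the depth and counting error are unknown.

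Peaks were joined to GENCODE M21 genes in Python 3.11.15 with pandas 2.3.3 and numpy 2.4.6, intervals came from scipy 1.17.1, and plots were drawn in matplotlib 3.10.9. A gene met a peak from 1 bp of overlap, and body peaks were those reaching beyond 1000 bp past the TSS. Since there was 1 library per group, no test was run. Members were counted beside all 20807 autosomal protein-coding genes, with 10 percentage points of H2Bub1 and 1.5 times in fold as sizes of difference. Motifs were searched in RefSeq promoter entries. The steps were tested on simulated data.

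The members, roles and lists were chosen with earlier results of these data known. Genes were named where they belong to the histone group, have a promoter peak in 1 genotype or 1 cell type only, are among the 3 highest or lowest differences of a cell type, have no peak, or belong to a pair that differs in call. Other members that are named were chosen after their values were seen. The alternatives were a -log10 q value of at least 3, equal numbers of peaks, H2Bub1 over the body beyond 1000 bp from the TSS, a window of 100 bp before to 300 bp after the TSS, any coding TSS, genes at least 5000 bp from another gene, and minimum shares of the body of 1% (Pol II) and 10% (H2Bub1).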

Additional observations from a re-analysis of the deposited data

Results flagged for a closer look

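At 9 members the Pol II promoter fold differed between genotypes in opposite directions in mESCs and MEFs. They were 9 of the 19 with a peak in all 4 lists (47.4%), against 49.8% of 5437 autosomal genes. The median ratio of all genes in MEFs was itself -0.22, and the MEF values of Usp47 and Usp8 below lie above it or next to it. As log2 of Atxn7l3-/- over WT, Usp47 had 1.19 in mESCs and -0.07 in MEFs, Usp29 had 1.08 and -0.35, Usp8 had 0.83 and -0.24, Usp42 had 0.41 and -0.77, and Usp3 had 0.20 and -0.48. The reverse order was seen at Usp34, with -0.69 and 0.26, at Usp36, with -0.53 and 0.83, at Usp48, with -0.34 and 0.50, and at Usp13, with -0.19 and 0.59. The H2Bub1 covered share of 2 members also differed in opposite directions, by -1.46 percentage points in mESCs and 15.7 in MEFs at Usp10, and by -19.0 and 25.6 at Usp48. The share of all genes that did so is not given, so nothing particular to the members is read from this count. With 1 library per group none of these differences was tested.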

How the results depend on the processing

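Of 184 alternative values over 40 results, 155 stayed close to the value given. For a percent this meant both within its counting interval and within 1.5 times. For a median it meant within an interval over the members, such as -0.34 to 0.56 for the mESC Pol II promoter ratio. Members are not replicates, and the Pol II medians whose sign turned, given above, were counted as close by this rule. No paired analysis was possible because each group has 1 library, and for the same reason none was left out. The causes of the changes below were not tested, beyond the fewer peaks or genes that an alternative keeps by construction.

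With a -log10 q value of at least 3, the members with H2Bub1 in mESCs were 46.5% in WT, 83.7% in Atxn7l3-/- and 37.2% in the mutant only, 76.7% had a higher share in the mutant, and the median shares were 0% and 10.2%. In MEFs they were 14.0% in WT and 79.1% in the mutant only, with a WT median of 0%. Counting H2Bub1 from 10% of the body gave 44.2%, 79.1% and 34.9% in mESCs, and 44.2% in WT and 48.8% in the mutant only in MEFs. With equal numbers of peaks, 11.6% of members had a Pol II promoter peak in mutant mESCs only, and 4.65% a body peak in WT mESCs only. The narrow window gave 2.33% with a promoter peak in mutant MEFs only, namely Usp49. A minimum of 1% of the body gave 6.98% with a body peak in mutant mESCs.

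Among the 14 members at least 5000 bp from another gene, 7.14% had a promoter peak and 0% a body peak in mutant mESCs only, 0% had H2Bub1 in the mutant only, 28.6% were higher by 10 points and 7.14% lower. In MEFs, 35.7% had a body peak in WT and 28.6% in the mutant only, 92.9% had H2Bub1 in WT, 100% in the mutant and 7.14% in the mutant only, and 100% had a higher share in the mutant. Requiring that no peak of the other genotype lay within 5000 bp, an alternative chosen after seeing the data, moved no value that far.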
